A study of Mus musculus with 4 samples.

Results

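Alpha-defensin transcripts, which mark Paneth cells, were measured in freshly isolated mouse small intestinal crypts and in organoids grown from crypts for 1 week. The members are all non-control probes whose name in the array's own annotation starts with Defcr (defensin-related cryptdin, an older name of the family) or Defa. This gave 13 of the 41174 probes on the array, or 11 of its 28090 gene names, and each probe is given apart because the genes are near-identical copies. Of these, 11 probes were among the 21916 probes with enough signal to be tested (above background in the crypt RNA, or in the organoid RNA, on each of the 4 arrays). All 11 were well above background in both tissues on every array. The other 2 probes, both named Defcr-rs2, were not tested.

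Crypt and organoid RNA from each of 2 mice was compared on two-colour Agilent arrays. The genotype, strain and age of the mice are not given in the sources used here. Crypts were freed from the intestine with EDTA (2 mM), strained at 70 µm, and went directly to RNA isolation or into culture. For culture, 500 crypts were embedded in 50 µl of Matrigel, a basement membrane gel, under medium with EGF (10 to 50 ng/ml), R-spondin (500 ng/ml) and Noggin (100 ng/ml). The labels name no genetic change and no drug in either group. Each array held both RNAs of a mouse in different dyes, Cy3 and Cy5, and was repeated with the dyes exchanged, giving 4 arrays. The arrays of a mouse repeat the same pair of RNAs, so n = 2 mice, and each value is the log2 of organoid signal over crypt signal, so that a negative value is a lower level in organoids. The share of probes above background was 53.7% to 67.2% for crypt RNA and 51.5% to 61.7% for organoid RNA. The number of mice and arrays limits the precision of every value.

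Paneth cells sit at the base of small intestinal crypts, between the stem cells, and secrete antimicrobial proteins from large granules into the crypt lumen. Alpha-defensins, called cryptdins in the mouse, are short cationic peptides held in shape by disulfide bonds, and they disrupt bacterial membranes. In the mouse they are made as inactive precursors that the metalloproteinase Mmp7 cleaves, and Wnt signalling through TCF factors is known to drive their transcription.

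The probes read a family of close copies, which limits how far a probe can be tied to 1 gene. The RefSeq gene table for GRCm38.p6 names 28 protein-coding Defa genes, all on chromosome 8. The accession that the array file gives for a probe matched that table for 7 of the 13 probes, which pair Defcr3 with Defa3 (2 probes), Defcr20 with Defa20, Defcr21 with Defa21, Defcr22 with Defa22, Defcr23 with Defa23 and Defcr-rs7 with Defa31. Defcr4, Defcr6, Defa1, Defcr-rs12 and Defcr-rs2 keep the array's names. For 4 probes the accessions listed beside the probe belong to more than 1 RefSeq gene: Defa5 and Defa22 for Defcr4, Defa21 and Defa22 for Defcr21, Defa22, Defa26 and Defa29 for Defcr22, and Defa3, Defa23 and Defa29 for 1 Defcr3 probe.

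The following probe sequences show how much of their length the probes share. This bears on which ratios can stand for separate genes but does not decide it. The capitals mark the longest run of bases that a probe has in common with another alpha-defensin probe.
Defa1: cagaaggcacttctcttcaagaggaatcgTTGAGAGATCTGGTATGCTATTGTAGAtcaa
Defcr6: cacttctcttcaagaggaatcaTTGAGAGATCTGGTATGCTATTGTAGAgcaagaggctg
Defcr23: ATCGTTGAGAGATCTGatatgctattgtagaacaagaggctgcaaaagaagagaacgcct
Defcr20: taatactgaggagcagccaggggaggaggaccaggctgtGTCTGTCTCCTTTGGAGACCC
Defcr-rs7: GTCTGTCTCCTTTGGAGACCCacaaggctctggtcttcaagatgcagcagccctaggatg
Defcr21: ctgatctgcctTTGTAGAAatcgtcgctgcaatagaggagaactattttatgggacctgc
The Defa1 and Defcr6 probes share a run of 27 bases and differ at 2 of the 53 bases over which they overlap. The Defcr23 probe, whose ratio was the lowest of the family, differs from Defa1 at 2 of 35 overlapping bases and from Defcr6 at 3 of 42. The Defcr20 and Defcr-rs7 probes share 21 bases with no mismatch. The Defcr21 probe has no run longer than 8 bases in common with another member. This does not make it specific to 1 gene, since Defa22 is among the genes listed for it, for Defcr22 and for Defcr4. Joining probes that overlap over at least 20 bases with at least 90% identity left 6 sequence groups among the tested probes, and 6 of the 11 probes fell into the largest. Whether a probe also binds the transcripts of other copies was not tested.

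The array file gives a position in the mm9 build for 8 of the 13 probes, all on chromosome 8, and none for Defa1, Defcr-rs7, Defcr-rs12 or the Defcr-rs2 probes. Defcr21 is at chr8:22166004-22166063, Defcr22 at chr8:22302055-22302114, Defcr20 at chr8:22619859-22619918 and Defcr4 at chr8:22675993-22676052. The Defcr3 probes are at chr8:22427232-22427291 and chr8:22427132-22427192. Defcr23 (chr8:22194930-22195548) and Defcr6 (chr8:22845161-22845779) each span 619 bases for a probe of 60 bases. Whether a position lies in a coding exon or a UTR is not annotated in the file. Each of the 13 probes, the untested Defcr-rs2 probes included, has at least 1 reading frame without a stop codon. This does not show that a probe lies in coding sequence.

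The bases before the transcription starts are shown for copies that the probes name, with the motif ATCAAAG, a published core of TCF binding sites, in capitals. A part of this motif in the ratios was not tested. The sequences are the 250 bases before the gene start in RefSeq, build GRCm38.p6, plus strand, at chr8:21025295-21025544 for Defa21 and chr8:21054790-21055039 for Defa23.
Defa21: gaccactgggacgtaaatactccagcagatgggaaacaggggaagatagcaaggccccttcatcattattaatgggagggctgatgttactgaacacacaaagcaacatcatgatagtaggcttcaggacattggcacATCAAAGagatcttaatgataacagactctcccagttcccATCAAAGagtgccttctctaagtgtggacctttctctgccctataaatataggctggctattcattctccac
Defa23: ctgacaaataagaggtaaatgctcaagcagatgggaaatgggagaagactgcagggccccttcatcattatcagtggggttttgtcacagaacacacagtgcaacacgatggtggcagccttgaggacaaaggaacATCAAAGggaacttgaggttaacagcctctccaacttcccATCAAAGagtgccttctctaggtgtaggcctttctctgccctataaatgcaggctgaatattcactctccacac
In Defa21 the motif starts 112 and 72 bases before the gene start, and in Defa23 114 and 74 bases. The Defa22 window has the same letters as that of Defa21, and the Defa31 window the same as that of Defa23. The promoter table holds windows for 16 of the 28 Defa genes, without Defa3 and Defa5 among others, and the rest were not analysed here. On either strand the motif was found in 13 of these 16 windows, with 2 or more copies in 9. Of all 32851 windows of this length, 1053 (3.21%) held it and 27 (0.0822%) held 2 or more copies. TATAAA was found in 15 of the 16 Defa windows and in 12.4% of all windows. The Defa windows are copies of each other, so these counts are not independent, and a match of letters is not evidence of binding.

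Alpha-defensin signal was lower in organoids than in crypts at every tested probe of both mice. All 11 tested probes were called lower (limma, Benjamini-Hochberg adjusted p from 0.00154 to 0.0216 over all tested probes), against 4.8% of all tested probes called lower, 4.5% called higher and 9.3% called in either direction. The median member ratio was -1.78, or 3.43-fold lower, with -2.03 in mouse 1 and -1.47 in mouse 2 (SD 0.39, n = 2 mice). The median of all tested probes was 0.01. Ratios of single probes ran from -2.64 to -1.09. All 11 were lower on all 4 arrays, as were 22% of all tested probes, and 10 of 11 were at least 2-fold lower in both mice, as were 2.02% of all tested probes. In RNA from whole crypts and organoids, fewer Paneth cells and less alpha-defensin RNA per Paneth cell cannot be told apart.

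**Figure D1:**
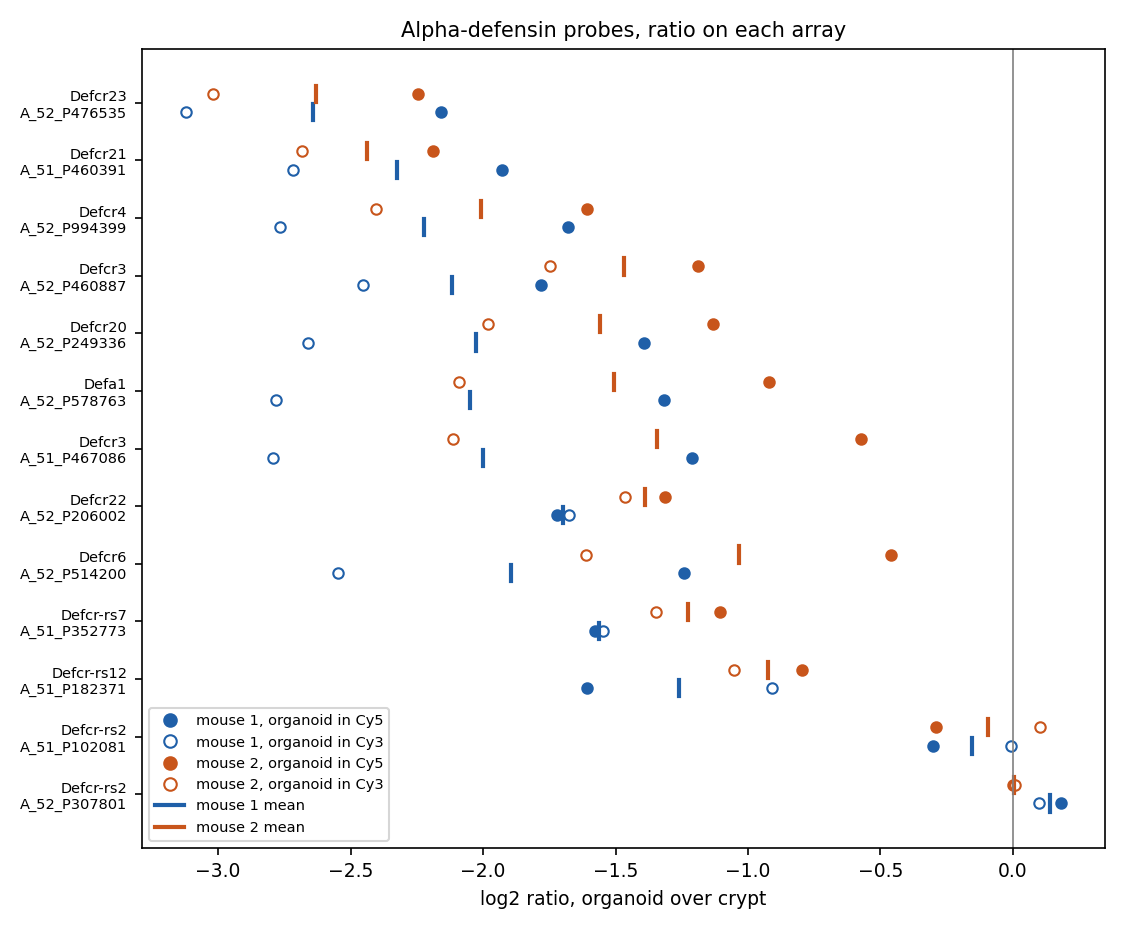
Log2 ratio of organoid over crypt on each of the 4 arrays for the 13 alpha-defensin probes, ordered by their mean. Symbols mark the mouse and the dye that carried organoid RNA. All values of the 11 tested probes lie below 0, from -3.12 to -0.46, while the values of the untested Defcr-rs2 probes lie between -0.30 and 0.18.

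In the next paragraphs the array ratios of a probe are given as mouse 1 with organoid in Cy5, mouse 1 with organoid in Cy3, mouse 2 with organoid in Cy5 and mouse 2 with organoid in Cy3, and the mean is over the 2 mice with its SD. Defcr23, a cryptdin gene, had the lowest ratios, at -2.16, -3.12, -2.24 and -3.02. Its mean was -2.64 (SD 0.0062, adjusted p = 0.00154 by limma), which puts the organoid signal at 16.1% of the crypt signal. The mice differed by 0.01, the smallest difference of any member.
Defcr21 followed with -1.93, -2.72, -2.19 and -2.68, a mean of -2.38 (SD 0.08, adjusted p = 0.00186). It was the 1 member with a lower ratio in mouse 2 than in mouse 1. The probe for Defcr4, the cryptdin known for strong bactericidal activity, read -1.68, -2.77, -1.61 and -2.40, a mean of -2.11 (SD 0.15, adjusted p = 0.00271). In the mean of the dye orientations, these 3 probes had the lowest ratios in both mice, in the same order. Their 2-mouse ranges of these means did not overlap one another. The single arrays of mouse 1 did not keep this order. With organoid in Cy5, a Defcr3 probe (-1.78) and Defcr22 (-1.72) were below Defcr4. With organoid in Cy3, the other Defcr3 probe (-2.79) and Defa1 (-2.78) were below Defcr4 and Defcr21.

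Both probes for Defcr3, another cryptdin, had similar ratios once the dye orientations were averaged. They cover different stretches of the transcript, and the accessions listed for the upstream probe also belong to Defa23 and Defa29. The upstream probe read -1.78, -2.45, -1.19 and -1.75, a mean of -1.79 (SD 0.46, adjusted p = 0.00836). The downstream probe read -1.21, -2.79, -0.58 and -2.11, a mean of -1.67 (SD 0.46, adjusted p = 0.00999). The upstream probe was lower by 0.12 in each mouse, less than the difference between the mice, which was 0.65 and 0.66. That probe was the lower of the pair with organoid RNA in Cy5 and the higher with organoid RNA in Cy3, in both mice.
Defcr20 read -1.39, -2.66, -1.13 and -1.98, with a mean of -1.79 (SD 0.33, adjusted p = 0.00563). Defa1 read -1.32, -2.78, -0.92 and -2.09, with a mean of -1.78 (SD 0.39, adjusted p = 0.00679), which is the family's median. Defcr6, whose probe shares most of its bases with Defa1, read -1.24, -2.55, -0.46 and -1.61. Its mean was -1.46 (SD 0.61, adjusted p = 0.0216), the widest spread between mice and the highest p of the family.

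Defcr22 and the related sequences Defcr-rs7 and Defcr-rs12 had the smaller changes beside Defcr6. Defcr22 read -1.72, -1.68, -1.31 and -1.46, a mean of -1.54 (SD 0.22, adjusted p = 0.00592). Defcr-rs7 read -1.58, -1.55, -1.11 and -1.35, a mean of -1.39 (SD 0.24, adjusted p = 0.00824). Defcr-rs12 read -1.61, -0.91, -0.79 and -1.05, a mean of -1.09 (SD 0.24, adjusted p = 0.0154), the smallest change of a tested member, with the organoid signal at 46.9% of the crypt signal. It was the exception to a 2-fold drop in both mice, with -0.92 in mouse 2. The difference of Defcr23 minus Defcr-rs12 was -1.38 in mouse 1 and -1.71 in mouse 2. From Defcr4 to Defcr-rs12 in the order of the means, each probe's 2-mouse range overlapped that of its neighbour, so these neighbours are not separated by the spread between mice. Differences between probes in the size of the ratio are of the same order as the gaps between dye orientations, which ran from -0.70 at Defcr-rs12 to 1.58 at the downstream Defcr3 probe, so the order is a description of probes and not of genes.

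The Defcr-rs2 probes gave signal near background, and no direction is drawn from them. The first read -0.30, -0.01, -0.29 and 0.10 and was above background in 0 of the 8 channels. The second read 0.18, 0.10, 0.00 and 0.01 and was above background in 1 crypt and 1 organoid channel, both on the mouse 1 array with organoid in Cy3. Its signals ran from 115.8 to 234.5.

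The level of each probe in each tissue was taken from the separate dye channels after normalization between arrays, in log2 units, and is compared within a probe. Both crypt levels of each of the 11 tested probes were above both of its organoid levels. The share of all tested probes with such a gap was not counted. Defcr23 had a crypt level of 16.97 (SD 0.04, n = 2 mice) and an organoid level of 14.33 (SD 0.03). Defcr6 went from 17.93 in crypts to 16.04 in organoids of mouse 1, and from 17.68 to 16.65 in mouse 2. Defcr-rs12, the dimmest tested probe, went from 10.34 to 9.08 in mouse 1 and from 10.05 to 9.12 in mouse 2. The organoid channels of all 11 were still well above background, so the transcripts were lower and still detected.

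**Figure D2:**
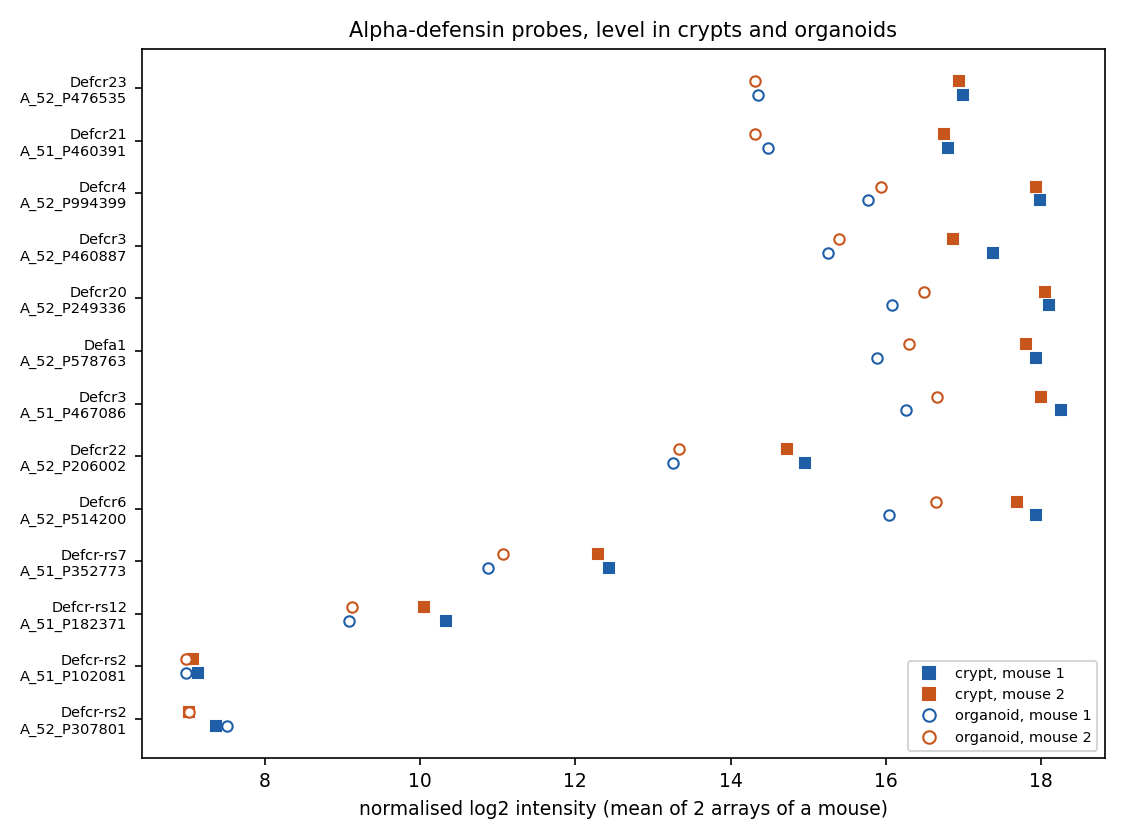
Log2 channel level of each alpha-defensin probe in crypts and organoids, with 1 point per mouse and tissue (mean of that mouse's 2 arrays). At the 11 tested probes both crypt points lie above both organoid points, which was not counted over all tested probes. At the Defcr-rs2 probes the points lie together near background. Heights are not compared between probes, which bind with different strength.

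The drop was larger in mouse 1 for 10 of the 11 probes. The difference, mouse 2 minus mouse 1, ran from -0.11 at Defcr21 to 0.86 at Defcr6, with a median of 0.34. Over all tested probes the median of this difference was -0.03 and the median of its size was 0.21. Crypt levels were higher in mouse 1 at all 11 probes (median difference of mouse 2 minus mouse 1, -0.14), and organoid levels were higher in mouse 2 at 9 of 11 (median difference 0.17). The same counts were not made over all tested probes, so these do not set the family apart. The order of the probes was alike in both mice (Pearson's r = 0.868, Spearman's rho = 0.918 over 11 probes, given as a description, since the probes share arrays and bases). With 1 value per mouse, a difference between mice has no test.

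The size of the drop also depended on the dye. The median member ratio was -1.61 in mouse 1 and -1.13 in mouse 2 with organoid RNA in Cy5, and -2.66 and -1.98 with organoid RNA in Cy3. At 8 of the 11 probes the Cy3 array gave the lower ratio in both mice, and the exceptions were Defcr22, Defcr-rs7 and Defcr-rs12. The downstream Defcr3 probe had the largest gap between orientations, 1.58 in mouse 1 and 1.54 in mouse 2. The median gap of the members was 0.87, while the median size of the gap over all tested probes was 0.17. Among the 220 brightest probes (the top 1%), which include 6 of the members, the median gap was 0.54. No member spot was marked as saturated. The part of brightness in the gap was not tested, and the average of both orientations is the value given for each mouse.

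**Figure D3:**
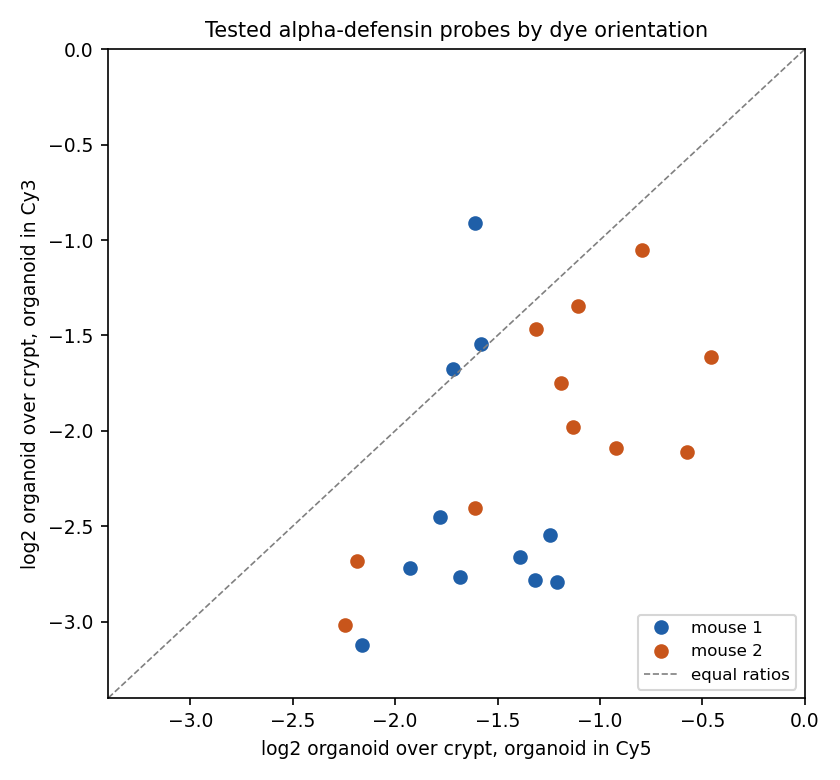
Log2 ratio of organoid over crypt with organoid RNA in Cy3 (vertical) against organoid RNA in Cy5 (horizontal) for the 11 tested alpha-defensin probes, 1 point per probe and mouse, with the line of equal values. Most points lie below the line, so the ratio was lower with organoid RNA in Cy3, and all points lie below 0 on both axes.

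Some calls depended on the processing, although no ratio of a tested member changed sign. With each array centred on its median in place of loess, 3 of 11 passed (Defcr23, Defcr21 and Defcr4) and the family's median was -1.24, and without the filter on dim probes 6 passed. With organoid RNA in Cy5 alone 9 passed, the downstream Defcr3 probe having an adjusted p of 0.0625 and Defcr6 one of 0.0875.

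Other products of Paneth cells were lower too, though not all of them. Of 20 tested genes of a list of Paneth effectors other than alpha-defensins, 10 were called lower and 1 higher. The median was -1.58 over the mouse means, -1.25 in mouse 1 and -1.35 in mouse 2. It lies at the edge of the genes called lower, so it does not stand for a typical gene. Of the 9 not called, Mptx1 was at -1.56 and the rest ran from -0.55 to 0.68. Counted by 1 probe per gene, 5.36% of all tested genes were called lower and 5.25% higher. Lyz1, the Paneth cell lysozyme, changed by -2.92 (SD 0.11, adjusted p = 0.0015), and Pla2g2a, a secreted phospholipase that attacks bacterial membranes, by -1.74 (SD 0.23, adjusted p = 0.00466). Ang4, an antimicrobial ribonuclease, changed by -2.54 with mice far apart at -3.28 and -1.80 (adjusted p = 0.0158). Reg3b, a lectin that binds bacteria, changed most, by -4.36 (SD 0.15, adjusted p = 0.00122), and enterocytes also make it. The 1 gene called higher was Nupr1, a small stress-induced nuclear protein, at 0.99 (SD 0.42, adjusted p = 0.0339). That call was lost in 5 of 12 other settings: median centring, the scanner's ratio, the deposited matrix, no dim-probe filter and organoid RNA in Cy5 alone. With no filter on dim probes Ang4 and Itln1 were not called, and with median centring Pla2g2a was not.

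Among genes for processing, storing and releasing alpha-defensins, 5 of 19 tested were called lower and the other 14 were not called, with a median of -0.24. Mmp7, which cleaves the precursors, changed by -1.65 (SD 0.21, adjusted p = 0.00502), close to the family's median, with array ratios of -1.77, -1.83, -1.58 and -1.41 that differed little with the dye. Spink1, a trypsin inhibitor named Spink3 on the array, changed by -2.77 (SD 0.06, adjusted p = 0.0015), and Slc39a4, a zinc importer, by -1.77 (SD 0.10, adjusted p = 0.0036). Of 19 regulators of Paneth cell and secretory fate, 1 was called lower and 2 higher, with a median of -0.16. Among all tested genes, 5.36% were called lower and 5.25% higher, so these small counts do not set the list apart. Klf4, a transcription factor of differentiating cells, changed by -1.28 (SD 0.29, adjusted p = 0.0118). Ephb3, a receptor that positions Paneth cells at the crypt base, changed by 0.92 (SD 0.01, adjusted p = 0.0165). Tcf7l2, a TCF factor of Wnt signalling that binds the motif shown above, was named after its value was seen, and changed by 0.76 (SD 0.04, adjusted p = 0.027). The Tcf7l2 call was lost in 6 of 12 other settings, the replicate block among them, and the Ephb3 and Klf4 calls in 2 each. Mmp7 and Slc39a4 lost their calls with median centring. Pcsk7 at -0.76 and Kcnn4 at -0.68 completed the 5 called lower in the processing list. Their calls were lost in 7 and 6 of 12 other settings. The beta-defensins, a related family made by many epithelia, were mostly out of reach: 4 of 28 on the array were tested, none of these 4 was called by limma (0 at an unadjusted p under 0.05), and 16 were not above background in any channel.

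Markers of other cells that a crypt fraction can hold also moved. All 5 tested enterocyte markers were called lower (median -1.56), with Lct, the brush border lactase, at -4.47 and Fabp2, a fatty acid binding protein, at -2.55. The calls of Vil1 at -1.56, Alpi at -1.26 and Sis at -1.16 were lost with median centring. Of 7 goblet cell markers 5 were called lower (median -1.62), led by Zg16 at -3.50 and Clca1 at -3.07, both secreted with mucus. The call of Muc2, at -1.25, was lost in 6 of 12 other settings, and those of Fcgbp and Agr2 with median centring. Of 5 enteroendocrine markers (median -0.07) 1 was called lower (Sct, secretin, at -1.60, not called with median centring). The other markers, Chga at -0.17, Gip at -0.07, Cck at 0.41 and Chgb at 0.44, were not called. Of 3 tuft cell markers none was called by limma (0 at an unadjusted p under 0.05). Of 4 stem cell markers 2 were called higher, Lgr5 at 2.29 and Smoc2 at 0.95, the latter call being lost in 3 of 12 other settings. Ascl2 at -0.22 and Olfm4 at -0.09 were not called. Neutrophils can make alpha-defensins in other species, and of 6 tested white blood cell markers 1 was called lower (Lyz2 at -2.32). Whether the Lyz2 probe also binds RNA of Lyz1, which was at -2.92, was not tested. Elane and S100a8, both neutrophil genes, were not above background in any channel. Mpo, a neutrophil peroxidase, was above background in all channels of both tissues, with a ratio of 0.06 (adjusted p = 0.826). Itgam, a myeloid integrin, was above background in 4 crypt and 0 organoid channels (-0.56, adjusted p = 0.118), and Ptprc, found on white blood cells in general, in 4 crypt and 1 organoid channels (-0.70, adjusted p = 0.0644). The mean level of the 6 tested markers was 9.39 and 9.42 in crypts and 8.75 and 8.91 in organoids of mouse 1 and mouse 2. Of 2 tested stroma markers 1 was called lower (Acta2 at -0.66, a call lost in 7 of 12 other settings), while Des and Pecam1 were not above background. The part of these cells in the alpha-defensin ratios was not tested.

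**Figure D4:**
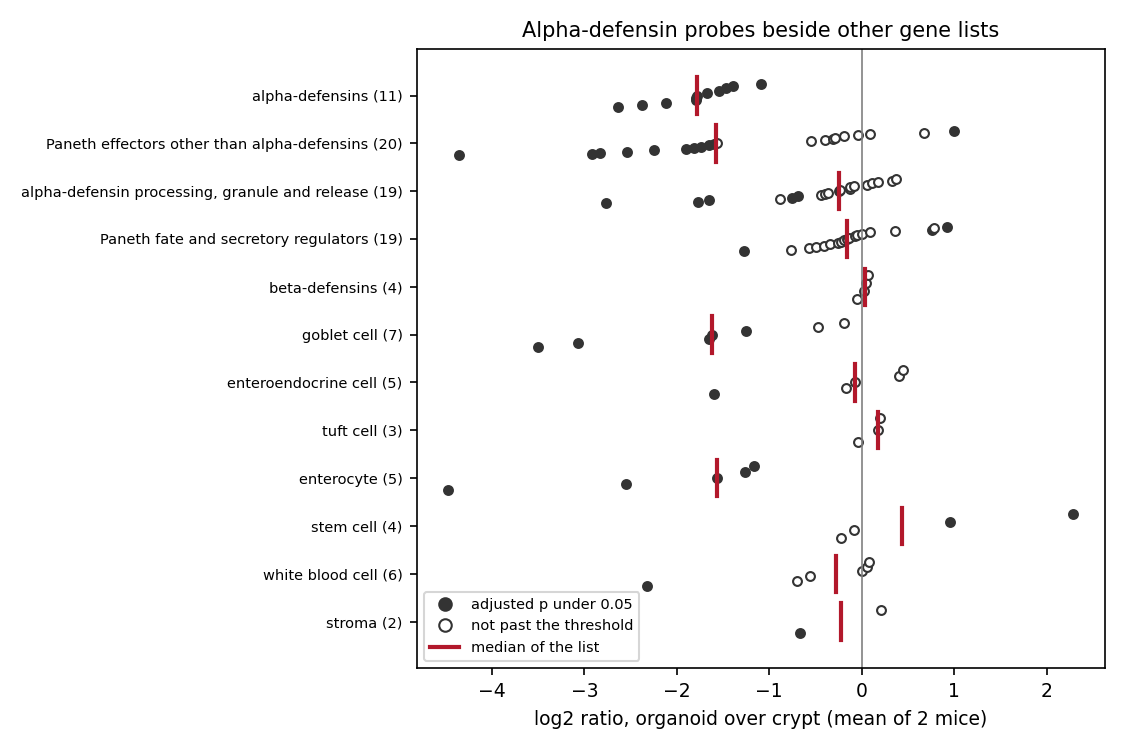
Mean log2 ratio of organoid over crypt (horizontal, n = 2 mice) of each tested gene in the alpha-defensin family and in 11 lists of related and marker genes, 1 point per probe or gene, with a bar at the list's median. Filled points passed the adjusted p threshold of 0.05. All 11 alpha-defensin points are filled and lie between -2.64 and -1.09, while the medians of the processing and regulator lists are -0.24 and -0.16.

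Genes with the pattern most like the family's median over the 4 arrays were found by the root mean square distance of the array ratios. The nearest was Itln1, an intestinal lectin that binds microbial sugars and is made by Paneth and goblet cells, at a distance of 0.20. Its array ratios were -1.74, -2.76, -1.38 and -1.70, with a mean of -1.90 (SD 0.50, adjusted p = 0.00824), and it shared the larger drop in mouse 1 and with organoid RNA in Cy3. Next came Clec2h at 0.40, a C-type lectin-like receptor, Psmb10 at 0.45, a subunit of the immunoproteasome, Crip1 at 0.45, a small LIM domain protein, and B2m at 0.46, the light chain of MHC class I. With 4 arrays of 2 mice this likeness is a description.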

How the data were processed

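Crypt and organoid RNA of 2 mice was hybridised to 4 arrays on 1 slide. The deposited intensity values are spot signals and local backgrounds on a linear scale, and the deposited log10 ratios of Cy5 over Cy3 are the scanner software's (Feature Extraction 10.2.1.3 per the file headers, 9.5.3 per the submitters' processing notes). The authors' series matrix holds log2 ratios of Cy5 over Cy3, since their slope on the scanner's ratios, turned from log10 to log2, was 0.963 to 0.991 (r from 0.978 to 0.992), and its centring stays unknown (column medians of 0). Trizol (labels) and an RNeasy kit (design text) are both named for the RNA, so the kit is unsettled.

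Signals were corrected with normexp (offset 50) and normalized by loess (limma 3.58.1, R 4.3.3), with control spots at weight 0 and outlier-marked spots left out. The dye labels set the direction, organoid over crypt. The fit used the mean of each mouse's 2 arrays, against 0 (lmFit and eBayes, two-sided, Benjamini-Hochberg over 21916 probes). With 1 residual degree of freedom per probe, eBayes added 4.285 prior degrees of freedom. Crypt and organoid RNA are paired by mouse on each array. Channel levels were taken after Aquantile. Script steps were tested on simulated data.

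Members, gene lists and tests were chosen with earlier results of these data known. All tested members are named, as are Lyz1, Mmp7, Ang4, Itln1 and Pla2g2a, the 2 largest changes past the threshold of each list, and the 5 probes nearest in pattern. The alternatives tried were no background subtraction, offset 0, median centring, the scanner's ratio, the deposited matrix, keeping marked spots, no dim-probe filter, each dye orientation alone, all 4 arrays with a dye effect, a replicate block, 1 probe per gene, near-identical probes counted once and leaving out each mouse.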

Additional observations from a re-analysis of the deposited data

How the results depend on the processing

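The alpha-defensin probes stayed lower in organoids in each of 12 other settings with a test, of which 1 probe per gene held 10 of the 11, without the upstream Defcr3 probe. The family's median was -1.24 with median centring, -1.34 with organoid RNA in Cy5 alone, -2.32 with it in Cy3 alone, and -2.03 to -1.47 leaving out either mouse, which allows no test. Median centring called 3 of the 11 probes and no dim-probe filter 6, which tested more probes. Paneth effector genes called lower numbered 6 instead of 10 without that filter. Over all tested probes, 2039 passed, against 448 with median centring, 637 without the dim-probe filter, 1040 with organoid RNA in Cy3 alone and 4428 with 4 arrays and a dye effect, which counts arrays as samples. With the mouse as a replicate block over the 4 arrays, chosen after seeing the data, 3721 passed and all 11 alpha-defensin probes were lower. That fit had no dye effect and a correlation within mice of 0.145, so it counted the arrays of a mouse almost as separate samples. The planned block fit with a dye effect could not be fitted to 4 arrays. The causes of the other shifts were not tested.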

Other observations

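Mptx1, a mucosal pentraxin of Paneth cells on the effector list, went opposite ways in the mice, with 0.54 in mouse 1 and -3.66 in mouse 2 (adjusted p = 0.364 by limma). It was named after its values were seen. A probe that the name rule leaves out, TC1593310, is described in the array file as a cryptdin-related sequence. It was not above background in any channel and had a ratio of -0.06, and it was also named after its value was seen.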
